A study of Pinus tabuliformis with 21 samples.

Results

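A set of 100 gene models, out of 84525 counted in foliage of the Chinese pine Pinus tabuliformis, was followed through ultraviolet irradiation. They were chosen because their transcripts were low after 1 d of UV-B and near the control level or above it after 7 d. The measure behind the choice is D, the log2 of a group's mean CPM plus 1, minus the same value of the control group. CPM is a gene model's count divided by the library total and multiplied by 1000000. Gene models with a mean control CPM of 5 or more numbered 11220, and 8318 of these had D above -0.3 after 7 d of UV-B. The 100 of those 8318 with the lowest D after 1 d of UV-B are the members, ranked here from 1 for the lowest D. The condition on 7 d has no upper limit, and 9 members had D above 0.3 there, 2 of them above 1.

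Seedlings aged 2.5 years, 20 to a group, were kept under fluorescent lamps in a greenhouse, and treated groups received ultraviolet light on top of that lighting. UV-B covered 280 to 320 nm with a peak at 306 nm, at 280 µW/cm2. UV-C covered 230 to 270 nm with a peak at 254 nm, at 28 µW/cm2. The 7 groups are a control without ultraviolet light sampled at 0 h, UV-B for 1, 3 or 7 d, and UV-C for 1, 3 or 7 d. Each has 3 poly(A) RNA libraries. The control has no later sampling, so every difference from it spans time as well as irradiation, and the bands differed in intensity. The labels give no plant for a library, so replicates may share seedlings, and the p-values then reflect library-to-library spread that may be technical.

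UV-B reaches the ground in sunlight. In Arabidopsis it is perceived by the photoreceptor UVR8, which acts through the transcription factor HY5 to induce protective flavonoids and repair enzymes. UV-C is filtered out by the atmosphere. Both bands damage DNA directly, and pigments in the epidermis of conifer needles screen inner tissue from UV-B. Leaves that receive ultraviolet light commonly show lower transcript levels of growth and photosynthesis genes early on. The files do not pair gene models with names, so none of this background can be assigned to a member, and the labelled tissue could not be checked against marker genes.

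Library totals lay between 6177212 and 8560163 counts, and 5 CPM stands for 30.9 counts in the library of lowest total. The biological coefficient of variation was lowest in the control, at 13.8%, and highest in UV-C at 3 d, at 41.3%. It was 32.5%, 30.1% and 25.3% after 1, 3 and 7 d of UV-B, and 31.2% and 19.7% after 1 and 7 d of UV-C. As in any bulk sample, fewer cells of a type and less RNA per cell cannot be told apart.

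Members spanned the range of expression in the control. Their mean control CPM ran from 5.04 to 7859, with a median of 23.3, against a median of 27.6 over the 8318 genes open to the choice. There were 20 members under 10 CPM, 21 at 100 CPM or more and 3 at 1000 CPM or more. The leading pair made up 53.1% of the members' summed control CPM, so sums mostly follow that pair and medians are used below. The identifiers of 93 members begin with PITA_, 5 begin with PITAhm_ and 2 have other forms. Over the 8318 genes these forms made up 87.4%, 10.2% and 2.37%.

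The depth of the dip is what chose the members and is given as a description. Median D after 1 d of UV-B was -1.24, with quartiles of -1.54 and -1.11 and a lowest value of -2.78. The last member had a D of -1.051 and the first gene model outside the list -1.049, so the list ends within a continuous range. At the limit of the recovery condition, the nearest members had D of -0.297 and -0.295 after 7 d, and the nearest excluded gene models -0.304 and -0.321. At the limit of the expression condition, the nearest members had 5.04 and 5.53 control CPM, and the nearest excluded gene models 4.39 and 4.03. A further 616 gene models dipped at least as far at 1 d but stood at -0.3 or lower at 7 d, so recovery to this degree was the less frequent course among strong early dips.

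The dip was present in each UV-B 1 d library, and its depth differed among them. The members' median D was -1.03 in replicate 1, -1.67 in replicate 2 and -1.36 in replicate 3. Replicate 1 thus had the shallowest dip and replicate 2 the deepest. All 3 UV-B 1 d libraries lay below all 3 control libraries for 96 members, and the groups overlapped for 4. Among the 8318 genes 18.8% lay below all controls and 32% above them, and since this contrast chose the members nothing is read from the count.

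**Figure D1:**
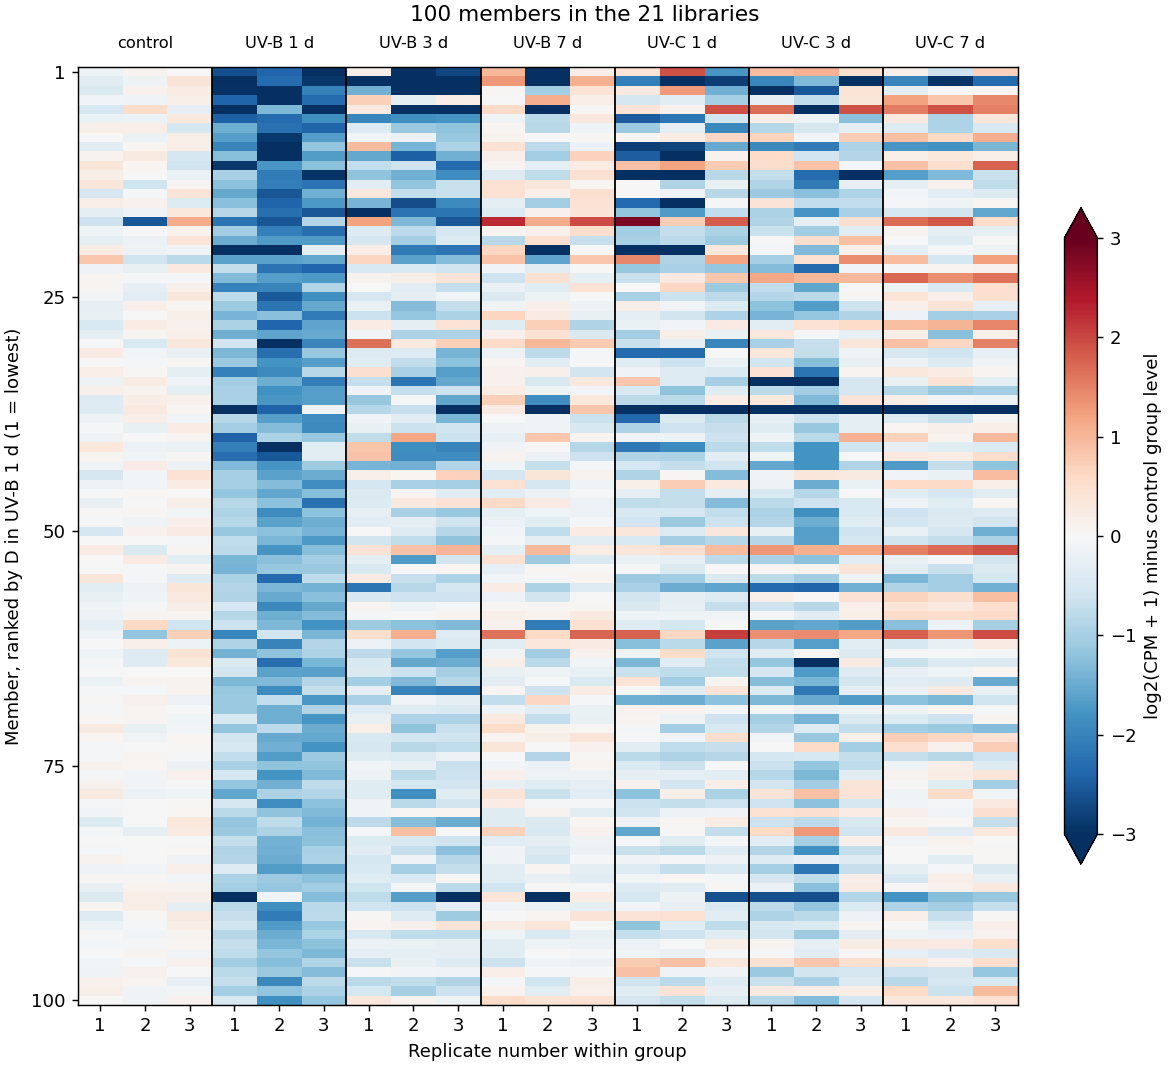
Each row is 1 of the 100 members, ordered by D in UV-B 1 d, and each column 1 of the 21 libraries; colour is log2(CPM + 1) minus the control group level, with the scale ending at -3 and 3. UV-B 1 d is blue throughout, with a median D of -1.03, -1.67 and -1.36 in its replicates, UV-C at 3 d replicate 2 is bluer than its mates, and 14 rows are more than 1 below the control in UV-B 7 d replicate 2.

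To see how much of the pattern rested on the libraries that chose it, the list was drawn again 3 times, each time without the same replicate number of control, UV-B 1 d and UV-B 7 d, and read in the libraries left out. Lists chosen without replicate 1 had a median D after 1 d of -1.46 in the libraries used and -0.62 in those left out. Without replicate 2 the values were -1.26 and -1.497, and without replicate 3 they were -1.36 and -1.06. The left-out UV-B 1 d library was below its control for 92, 97 and 81 of 100 gene models. The medians of all genes open to these lists were 0.10, 0.02 and 0.15 in the same libraries. Below -1 in the left-out library stood 27, 76 and 56 of 100. The redrawn lists thus also dipped in the libraries left out, to a depth that depended on the library. The 100 members themselves were chosen with all these libraries, and replicates may share seedlings, so this is no test of the members' dip.

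The return by 7 d also differed among the libraries left out. In the libraries left out, median D after 7 d of UV-B was 0.02 without replicate 1, -0.39 without replicate 2 and -0.11 without replicate 3. Above -0.3 stood 76, 46 and 67 of 100 gene models, against 84.2%, 82.9% and 89.8% of all genes open to the lists. The redrawn lists shared 55, 61 and 54 gene models with the 100 members. Of the members themselves, 14 had a value more than 1 below the control level in UV-B 7 d replicate 2, and none did in replicates 1 or 3. Among the 8318 genes 0.469% were that low in replicate 2. For these 14, the median value relative to control was 0.40 in replicate 1, -1.97 in replicate 2 and 0.36 in replicate 3, and 5 of them were among the 10 members with the deepest dip. Their group mean passed the recovery condition through replicates 1 and 3.

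Members varied more between replicates than other genes of the pool. The median range of log2(CPM + 1) across 3 control libraries was 0.39 for members and 0.24 for the 8318 genes. It was 0.99 against 0.41 after 1 d of UV-B, 0.71 against 0.36 after 3 d and 0.66 against 0.32 after 7 d. Under UV-C it was 0.62 against 0.36, 0.91 against 0.43 and 0.41 against 0.30 at 1, 3 and 7 d. A range of more than 4-fold within a group was found for 8 members in UV-B 1 d and 12 in UV-B 3 d, where 0.781% and 0.938% of the pool had one. Whether this spread helped to bring gene models into the list was not tested.

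After 3 d of UV-B, a group that had no part in the choice, members lay between their 1 d and 7 d levels. Median D was -0.50, with quartiles of -0.82 and -0.30. D was below -1 for 21 members, from -1 to -0.3 for 53 and above -0.3 for 26, of which 13 were above the control. The 3 d mean exceeded the 1 d mean for 93 members, and 82 had their levels in the order 1 d, 3 d, 7 d. Because the control and the 1 d and 7 d groups were chosen on, these counts describe the course and are not tests.

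The UV-B 3 d libraries were not alike. The members' median relative to control was -0.36 in replicate 1, -0.72 in replicate 2 and -0.72 in replicate 3. Replicate 1 stood nearer the control, and without it the group median was -0.74. All 3 libraries lay below all 3 controls for 51 members and above for 2, and the groups overlapped for 47. In the pool 12.8% lay below and 35% above. After 7 d 12 members still lay below all controls and 4 above, where the pool had 7.74% and 29.3%, and the condition on 7 d fixes what that count can be.

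Extremes at 3 d show how far members parted from each other. The highest D, 1.01, belonged to the member of rank 30, singled out after its values were seen. It had 64.3, 45.9 and 81.2 CPM in the control, 43.3, 6.15 and 15.5 after 1 d of UV-B and 204, 77.5 and 105.5 after 3 d. After 3 d, replicates 1 and 3 lay above every control and replicate 2 within the control range. The lowest D at 3 d, -3.26, belonged to the member of rank 2, with 7.58, 8.72 and 13.3 CPM in the control and 0, 0.271 and 0.133 after 3 d. After 7 d it had 25.9, 0 and 21.6 CPM, so its return rested on replicates 1 and 3.

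**Figure D2:**
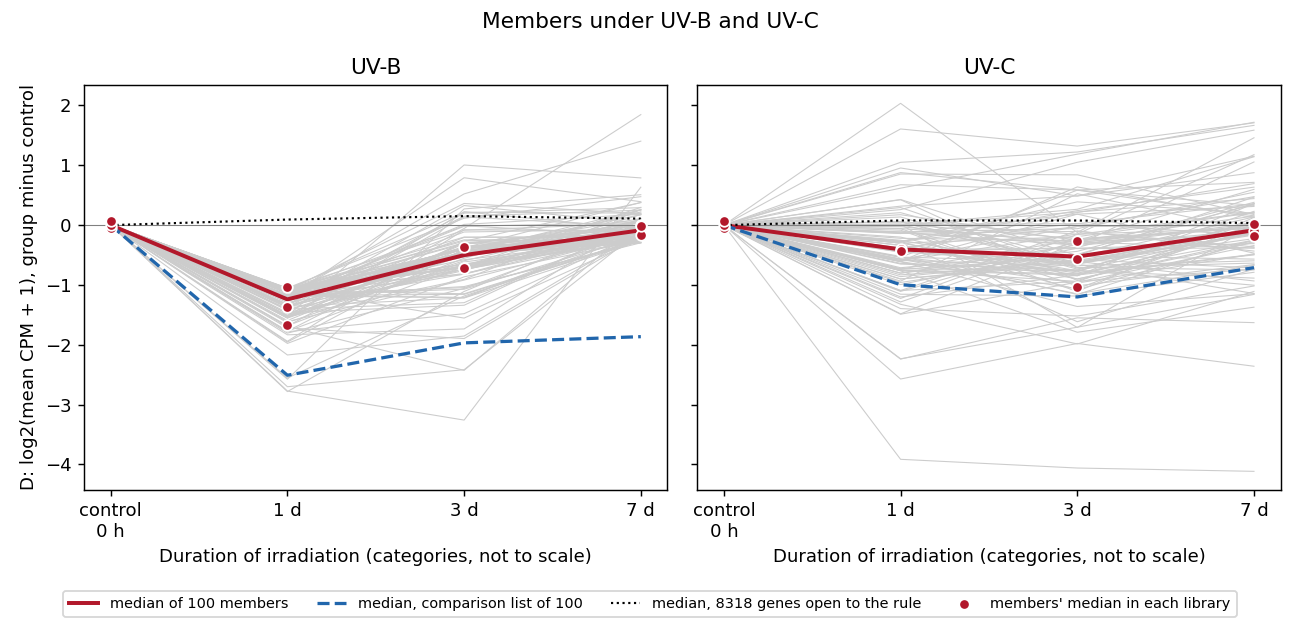
D (vertical axis, log2 units) of each member by duration under UV-B (left) and UV-C (right), as thin lines from the control; the thick line is the members' median, dots are the members' median in each library, the dashed line is the comparison list and the dotted line the 8318 genes. The members' median was -1.24, -0.50 and -0.09 after 1, 3 and 7 d of UV-B and -0.41, -0.53 and -0.09 after 1, 3 and 7 d of UV-C.

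UV-C libraries had no part in the choice, but the control they are set against did. After 1 d of UV-C the members' median D was -0.41, and its 3 libraries gave -0.43, -0.41 and -0.43, closer together than in any other irradiated group. After 3 d it was -0.53, with library medians of -0.57, -1.04 and -0.26, and after 7 d -0.09, with -0.10, -0.17 and 0.03. The median D over the 8318 genes was 0.08, 0.08 and 0.03 in these groups. UV-C at 3 d therefore had the widest spread, with replicate 2 low and replicate 3 high. In replicate 2 more genes of the pool, 7.72%, were more than 1 below the control level than in replicates 1 and 3, with 1.62% and 1.24%. The pool's median relative to control was not low there, at 0.06, against 0.05 and 0.09 in replicates 1 and 3.

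Single members took different courses under UV-C. After 1 d D was below -1 for 15 members and -0.3 or lower for 59, while 24 were above the control and 11 above 0.3. Of the 59, 34 stood above -0.3 after 7 d. In all 3 UV-C groups D was -0.3 or lower for 24 members and above -0.3 for 21. The dip at 1 d was deeper under UV-B than under UV-C for 93 members, a count that the choice by UV-B favours. For 82 members UV-B at 1 d was the lowest of the 7 groups, and the highest group was the control for 33, UV-C at 7 d for 32 and UV-B at 7 d for 16.

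All 3 UV-C 1 d libraries lay below all 3 controls for 44 members and above for 3, while the pool had 10.5% and 23.7%. After 3 d 45 members lay below and 7 above, where the pool had 17.1% and 28.3%. After 7 d 27 lay below and 19 above, where the pool had 17.7% and 23.3%. The share below all controls was thus above the pool's at 1 and 3 d, and nearer to it at 7 d. Members were chosen for a high control relative to another group, which favours counts below the control, so no test was made.

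Contrasts between groups without any part in the choice do not have that limit. Between 1 d and 7 d of UV-C, transcripts of the members were more often higher at 7 d. The edgeR log2 fold change was above 0 for 79 of 100 members, and for 50.02% of the 18265 genes tested. Its median was 0.45, with quartiles of 0.04 and 0.94, against a median of 0.00 over all genes. By the quasi-likelihood test of edgeR, Benjamini-Hochberg adjusted over all genes, 15 members rose and 1 fell. Of all genes tested 3.59% rose and 4.56% fell, and of the pool of 8318 genes 6.14% rose and 3.38% fell. All 3 libraries at 7 d lay above all 3 at 1 d for 31 members, where 9.42% of all genes tested and 12.3% of the pool did so. They lay below for 4 members, against 20.8% of all genes and 19.9% of the pool.

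The members that rose had log2 fold changes from 0.62 to 2.03, with adjusted p from 0.00141 to 0.0469. Of the 15, 13 were below the control after 1 d of UV-C, and the median D of the 15 was -0.57 after 1 d and 0.38 after 7 d. Among all members only 24 were above the control after 1 d of UV-C, and low 1 d libraries favour such a call. Whether members that had dipped under UV-C rose more often can therefore not be read from these values. The control CPM of the 15 ran from 12.6 to 3461. The largest rise was that of the member of rank 30, which had 39.5, 53.0 and 15.8 CPM at 1 d and 118, 97.9 and 185 at 7 d (log2 fold change 2.03 ± 0.56 SE, edgeR adjusted p = 0.0365). The member of rank 4 had 44.4, 49.9 and 31.4 CPM at 1 d and 148.5, 114 and 174.5 at 7 d (1.93 ± 0.34 SE, edgeR adjusted p = 0.00382). In neither did the libraries of the 2 groups overlap. The member that fell, of rank 97, had 13.3, 6.25 and 6.18 CPM at 1 d and 4.09, 4.36 and 2.51 at 7 d (-1.09 ± 0.30 SE, edgeR adjusted p = 0.034). Its libraries did not overlap either.

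The count of 16 called members moved with the libraries used. Leaving out replicate 1 of UV-C 1 d gave 4 calls. Leaving out replicate 1 of UV-C 7 d gave 7, and leaving out replicate 3 of UV-C 7 d gave 4. All these calls were rises. Without replicate 2 or 3 of UV-C 1 d there were 11 or 16 calls, and without replicate 2 of UV-C 7 d there were 12. Each of these fits also has fewer libraries. The log2 fold change was above 0 for 73 to 79 members whichever of the 6 libraries was left out.

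**Figure D3:**
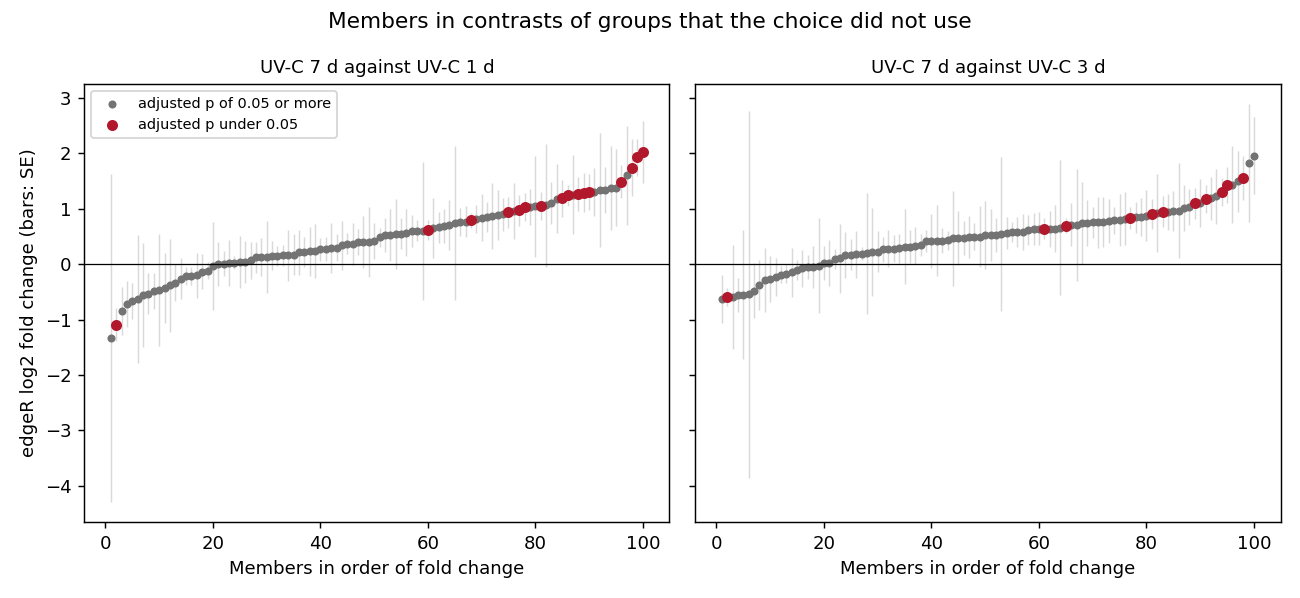
Log2 fold changes (edgeR, bars are standard errors) of the 100 members, sorted within each panel, for UV-C 7 d against UV-C 1 d (left) and UV-C 3 d (right); large dots have an adjusted p under 0.05. Fold changes were above 0 for 79 and 81 members, with 15 and 10 called higher and 1 called lower in each.

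Between 3 d and 7 d of UV-C the picture was similar, and these contrasts have the 7 d libraries in common. The log2 fold change was above 0 for 81 members and for 47.69% of all genes, with medians of 0.52 and -0.03. By edgeR 10 members rose and 1 fell, where 3.91% of all genes rose and 4.63% fell. In the pool 6.71% rose and 4.98% fell. All 3 libraries at 7 d lay above all 3 at 3 d for 34 members, against 10.1% of all genes tested and 13.9% of the pool. They lay below for 2 members, against 16.9% and 19.8%. Rises ran from 0.64 to 1.56 on the log2 scale, with adjusted p from 0.00725 to 0.0459. All 10 risen members were below the control after 3 d of UV-C, with a median D of -0.77, and their median D after 7 d was 0.18. Among all members only 21 were above the control after 3 d of UV-C, and low 3 d libraries favour such a call.

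Members of high abundance were among those that rose in this step. The member of rank 100 had 865, 806 and 948 CPM in the control, 479, 354.5 and 620.0 after 3 d of UV-C and 1092, 1089 and 1180 after 7 d (log2 fold change 1.30 ± 0.25 SE, edgeR adjusted p = 0.00725). Its 7 d libraries were above both other groups without overlap. The member that fell, of rank 54, had 24.4, 25.0 and 30.1 CPM at 3 d and 18.3, 14.2 and 17.1 at 7 d (-0.60 ± 0.17 SE, edgeR adjusted p = 0.0352). Leaving out replicate 1, 2 or 3 of UV-C 3 d turned the count of 11 into 4, 1 or 28. Leaving out replicate 1, 2 or 3 of UV-C 7 d turned it into 5, 4 or 5. When edgeR was fitted to these 6 libraries only, it called 0 members, with 29 at an unadjusted p under 0.05, while DESeq2 on all libraries called 19.

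Between 1 d and 3 d of UV-C no common direction was seen. The log2 fold change was above 0 for 49 members, with medians of -0.01 for members and for all genes. By edgeR 3 members rose and 1 fell, where 4.46% of all genes rose and 1.77% fell. In the pool 5.33% rose and 1.86% fell. All 3 libraries at 3 d lay above all 3 at 1 d for 8 members and below for 11, against 9.53% and 11.8% of all genes and 12.5% and 11.7% of the pool. These shares were near the background. The largest of these rises, in the member of rank 19, went from 10.7, 12.3 and 9.87 CPM to 22.0, 32.2 and 41.5 (log2 fold change 1.59 ± 0.32 SE, edgeR adjusted p = 0.0122). Leaving out replicate 1 or 3 of UV-C 1 d turned the count of 4 into 0 or 9, and leaving out replicate 1, 2 or 3 of UV-C 3 d turned it into 1, 0 or 11. At an unadjusted p under 0.05 there were 11 members without replicate 1 of UV-C 1 d and 13 without replicate 2 of UV-C 3 d, and DESeq2 called 6 on all libraries.

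UV-C against UV-B at 3 d, again groups without a part in the choice, split the members both ways. The log2 fold change was above 0 for 49 members, with a median of -0.04 and quartiles of -0.30 and 0.54. By edgeR 5 members were higher under UV-C and 2 lower, where 4.54% of all genes were higher and 4.05% lower. In the pool 2.86% were higher and 6.41% lower. All 3 UV-C libraries lay above all 3 UV-B libraries for 19 members and below for 8. For all genes these shares were 11% and 14%, and for the pool 8.48% and 19.3%, so that the larger share lay above among members and below among the pool. No test of that difference was made. The 5 higher members had log2 fold changes from 0.82 to 1.74 and were all below the control under UV-B. Of all 100 members, 13 were above the control after 3 d of UV-B, and low UV-B libraries favour such a call. The member of rank 11 had 17.6, 19.1 and 5.17 CPM under UV-B and 43.9, 55.3 and 28.7 under UV-C at 3 d, without overlap (log2 fold change 1.64 ± 0.47 SE, edgeR adjusted p = 0.0388). The lower members were those of rank 68 and rank 100, at -1.57 ± 0.46 and -0.94 ± 0.25 SE (edgeR adjusted p = 0.0403 and 0.0257). Leaving out replicate 2 or 3 of UV-B 3 d turned the count of 7 into 2 or 4, and leaving out replicate 1 or 2 of UV-C 3 d turned it into 3 or 4. Fitted to these groups only, edgeR called 0, with 22 at an unadjusted p under 0.05, and DESeq2 on all libraries called 13.

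A comparison list of 100 gene models was drawn by the same rule with the recovery reversed, at D of -0.3 or lower after 7 d of UV-B. Its median D was -2.51, -1.97 and -1.86 after 1, 3 and 7 d of UV-B, and -0.996, -1.20 and -0.71 after 1, 3 and 7 d of UV-C. Under UV-C it thus also had its highest median at 7 d. Between 1 d and 7 d of UV-C 12 of its 99 tested gene models rose and 1 fell, and 69 had a log2 fold change above 0, with a median of 0.30. Between 3 d and 7 d 6 rose and 1 fell, and 79 had a log2 fold change above 0, with a median of 0.60. The members had 81 above 0 and a median of 0.52 in this step. At 3 d 24 were higher under UV-C than UV-B and 0 were lower, with a median of 0.67, beside 5 and 2 members with a median of -0.04. Of all genes tested 3.59% rose and 4.56% fell between 1 d and 7 d of UV-C, and 3.91% and 4.63% between 3 d and 7 d. At 3 d 4.54% were higher and 4.05% lower under UV-C than UV-B. The list came from 2902 gene models outside the pool of 8318. It was chosen for low UV-B levels at 1 d and 7 d, which favours higher levels under UV-C. No test of the difference between the lists was made.

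Some of the values are best seen in single gene models, of which 4 are named by a fixed rule. PITA_000047327-RA had the highest control level of all members. It had 7669, 7866 and 8043 CPM in the control, 5545, 2156 and 3327 after 1 d of UV-B, 7323, 4504 and 5322 after 3 d and 9245, 7723 and 7700.0 after 7 d. Under UV-C it had 5061, 4808 and 5147 CPM after 1 d, 5114, 3332 and 5571 after 3 d and 7407, 7623 and 9672 after 7 d. All libraries of 1 d and 3 d lay below all controls under both bands, and both 7 d groups overlapped with the control. The step from 3 d to 7 d of UV-C was 0.90 ± 0.27 SE on the log2 scale (edgeR adjusted p = 0.0451), and that from 1 d to 7 d was 0.85 ± 0.27 SE (edgeR adjusted p = 0.059). The former lost its call without UV-C 3 d replicate 1 or 2, without any 1 of the UV-C 7 d replicates and in the fit to its own groups (edgeR adjusted p from 0.0798 to 0.221).

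PITA_000076617-RA moved apart under the bands. It had 171, 174 and 199 CPM in the control, 88.3, 74.6 and 96.0 after 1 d of UV-B, 114, 156.5 and 139.8 after 3 d and 115, 169 and 160.0 after 7 d. Under UV-C it had 306, 335 and 231 CPM after 1 d, 248, 317 and 254 after 3 d and 226, 202 and 257 after 7 d. Every UV-B library lay below every control and every UV-C library above. At 3 d UV-C exceeded UV-B by 1.03 ± 0.17 SE on the log2 scale (edgeR adjusted p = 0.00151), and this held in each alternative except the fit to these groups only (edgeR adjusted p = 0.0668). It was named for the smallest p among members higher in this contrast.

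PITA_000072413-RA had the deepest dip. It had 20.8, 25.2 and 23.6 CPM in the control and 2.87, 3.67 and 1.01 after 1 d of UV-B. After 3 d of UV-B it had 26.2, 1.76 and 2.65 CPM and after 7 d 46.9, 1.75 and 26.7. Replicates 2 and 3 at 3 d and replicate 2 at 7 d thus lay within the range of the 1 d libraries. Under UV-C it had 31.4, 90.6 and 6.18 CPM after 1 d, 44.8, 49.2 and 32.9 after 3 d and 25.9, 14.7 and 38.3 after 7 d. All 3 libraries of UV-C at 3 d were above the control, and its contrast with UV-B at 3 d did not pass (log2 fold change 2.07 ± 0.99 SE, edgeR adjusted p = 0.206).

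PITA_000058903-RA had the highest D after 7 d of UV-B, at 1.85. It had 3.33, 0.134 and 13.5 CPM in the control, 0.453, 0.131 and 2.61 after 1 d of UV-B, 14.5, 1.63 and 0.133 after 3 d and 30.6, 13.4 and 24.8 after 7 d. Under UV-C it had 46.4, 10.1 and 22.4 CPM after 1 d, 2.59, 4.43 and 8.32 after 3 d and 20.2, 23.2 and 8.59 after 7 d. Its UV-B 1 d and control libraries overlapped, so its dip was not larger than the spread between controls. None of the 4 contrasts passed for it (smallest edgeR adjusted p = 0.211, for 3 d against 1 d of UV-C).

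**Figure D4:**
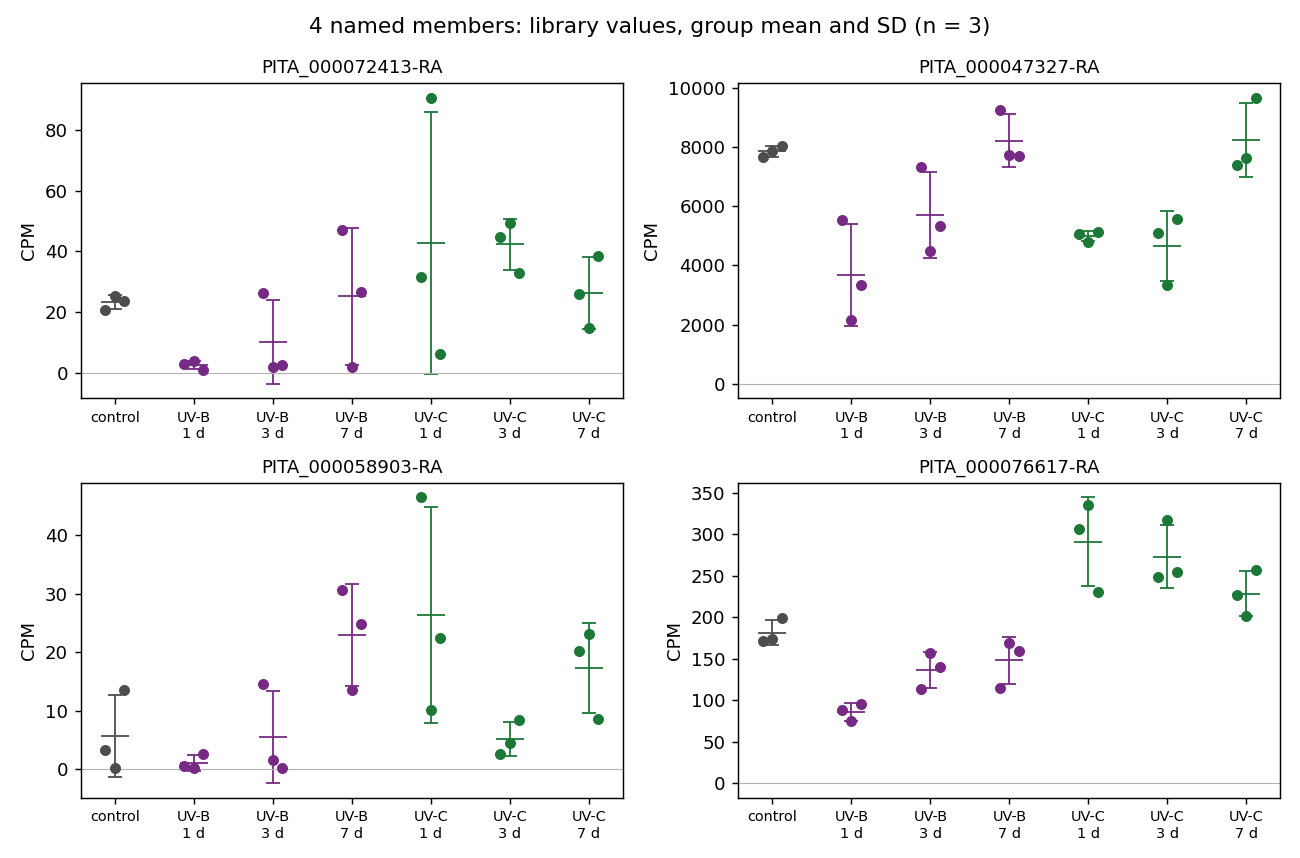
CPM (vertical axes, linear and different in each panel) of the 4 named members in every library, with the group mean and SD (n = 3) as bars; horizontal positions are the 7 groups. PITA_000047327-RA is low at 1 d and 3 d under both bands, PITA_000076617-RA lies below the control under UV-B and above it under UV-C, and the others have libraries far apart within a group.

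As a share of all counts the members took 2.13% ± 0.074 in the control (SD, n = 3). They took 0.951% ± 0.37, 1.56% ± 0.26 and 2.21% ± 0.18 after 1, 3 and 7 d of UV-B, and 1.51% ± 0.066, 1.53% ± 0.14 and 2.40% ± 0.29 after 1, 3 and 7 d of UV-C. Without the leading pair the shares were 0.999% ± 0.049 in the control, 0.424% ± 0.13, 0.776% ± 0.097 and 0.9996% ± 0.059 after 1, 3 and 7 d of UV-B, and 0.772% ± 0.034, 0.723% ± 0.18 and 1.09% ± 0.072 after 1, 3 and 7 d of UV-C. Unlike the median D, which stayed below 0 in every irradiated group, the mean share at 7 d was above that of the control under both bands, with the pair included. Under both bands this excess was smaller than the SD of the 7 d libraries, and the UV-B 7 d group entered the choice. Without the pair the 7 d share was level with the control under UV-B and above it under UV-C.

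Later levels were also read by dip depth and by abundance, as a description. The 6 members with D below -2 after 1 d of UV-B had a median of -1.52 after 3 d and 0.01 after 7 d. The 69 with D of -1.5 or higher had -0.47 and -0.14. Members under 10 control CPM had medians of -0.55 after 3 d of UV-B and -0.29 after 1 d of UV-C. The 59 members from 10 to under 100 CPM had -0.48 and -0.54, and those of 100 CPM or more had -0.51 and -0.45. The member of rank 37 had the lowest D of all members in each UV-C group. It had 13.4, 21.6 and 18.6 CPM in the control and at most 0.625 CPM in any of the 9 UV-C libraries. Under UV-B it had 0, 2.49 and 15.9 CPM after 1 d, 9.355, 10.7 and 0 after 3 d and 21.6, 0.269 and 32.7 after 7 d. D was below -1 in all 3 UV-C groups for 6 members.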

How the data were processed

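Foliage RNA of 21 libraries was sequenced as read pairs of 150 bp; the labels' protocols name Trimmomatic 0.36 for removing adapters and poor bases. The submitters' processing notes name featureCounts 1.5.3. The authors deposited raw counts per gene model; the sources used here do not give aligner, reference, strand setting or treatment of multiply matching reads, so near-identical copies may share reads. Bands come from sample titles and the treatment protocol, which also describes 4 h groups not analysed here. CPM used column totals and a pseudocount of 1 CPM. Contrasts were fitted with edgeR 4.0.16 (quasi-likelihood, two-sided) in R 4.3.3 to all libraries, 1 mean per group, with TMM factors and filterByExpr, which kept 18265 genes and all 100 members; calls are at a Benjamini-Hochberg adjusted p under 0.05. Standard errors are the fold change over the square root of F. Tests were limited to 4 contrasts among the 4 groups the choice did not use. The fit and the choice were tested on simulated data. Alternatives used DESeq2 1.42.0 and limma 3.58.1. The rule for named members took the lowest D in UV-B 1 d, the highest control CPM, the highest D in UV-B 7 d and the smallest p among members higher in UV-C than UV-B at 3 d; others given by rank were chosen after their values were seen. Members, lists and tests were chosen with earlier results of these data known. No list of genes by function could be matched, because identifiers come without names, and no sequences are shown. All replicates of a group differed by more than counting error (chi-square divided by its degrees of freedom, lowest 3.82, highest 60.2).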

Additional observations from a re-analysis of the deposited data

Results flagged for a closer look

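In the direct contrast of the bands at 3 d 7 members were called (edgeR adjusted p under 0.05), 5 higher and 2 lower under UV-C. Of all genes tested 4.54% were higher and 4.05% lower, and of the pool 2.86% and 6.41%. Nothing is read from so small a count. When only these groups were fitted, edgeR called 0 members, with 22 at an unadjusted p under 0.05, and DESeq2 on all libraries called 13. PITA_000076617-RA was 1.03 higher on the log2 scale under UV-C than UV-B at 3 d (edgeR adjusted p = 0.00151). Its libraries also lay above the control under UV-C and below it under UV-B at 1 d, where D differed by 1.74, and at 7 d, where D differed by 0.62. The differences at 1 d and 7 d were not tested, because the UV-B groups of those durations entered the choice of members. Groups of 3 libraries are too small to single out 1 library as an outlier.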

How the results depend on the processing

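Counts of called members moved with the fit, whereas the number with a log2 fold change above 0 ranged from 73 to 80 (7 d against 1 d of UV-C) and 77 to 86 (7 d against 3 d) over 14 alternatives each, a reading added after seeing the data. In the contrast of the bands at 3 d the 7 calls became 13 with DESeq2, 11 without a filter, 2 with limma voom using group weights, 0 when only the groups compared were fitted (22 at an unadjusted p under 0.05), and 2 to 7 when 1 replicate was left out. For 3 d against 1 d of UV-C the 4 calls became 0 when only those groups were fitted (14 at an unadjusted p under 0.05) and 0 with group weights in limma (16), and 0 to 11 with 1 replicate left out. For 7 d against 1 d of UV-C the 16 calls became 26 with DESeq2 and 25 with group weights. Calls there numbered 23 without a filter, 21 when only those groups were fitted and 4 to 16 with 1 replicate left out. For 7 d against 3 d of UV-C the 11 calls became 19 with DESeq2, 17 without a filter, 0 when only those groups were fitted (29 at an unadjusted p under 0.05) and 1 to 28 with 1 replicate left out. Fewer libraries enter the fits of single contrasts and those with 1 left out; otherwise the cause was not tested.

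With the replicate number as a block the counts were 6, 3, 15 and 12 in the order above. Deviations from the group means correlated from -0.37 to 0.37 between same-numbered libraries of different groups (median 0.01, 63 pairs). Between differently numbered libraries the correlations ran from -0.423 to 0.425 (median -0.007, 126 pairs). The ranges were alike, and whether libraries share plants or a batch was not tested.

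The median D in UV-C 1 d, whose library medians lay close together, was -0.50 with TMM scaling, -0.43 with a pseudocount of 0.1 and -0.43 as a mean, and -0.47 to -0.41 with 1 replicate left out. That in UV-B 3 d was -0.74 to -0.44 with 1 replicate left out, that in UV-C 3 d -0.72 to -0.38 and that in UV-C 7 d -0.14 to -0.02. Of the 100 members 52 were returned with a recovery limit of -0.1 and 53 with -0.5, as that limit decides who is in the list, and 72 to 82 with 1 replicate left out. Members near 5 CPM rest on few counts.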
